A study of Mus musculus with 22 samples.

Results

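The effect of removing the non-β endocrine cells of the islet was measured in β-cells of fasted mice, by comparing the 6 DT-treated mice with the 5 control mice that were taken after an 8 h fast. These 11 mice were chosen by their treatment labels, out of 22 mice in the study, and the other 11 were refed after the fast and are used here only where stated. Every mouse, controls included, was a male of mixed background, 3 months old, with the genotype GluDTR+, SstDTR htz, PpyDTR htz. These transgenes place the diphtheria toxin (DT) receptor in the glucagon, somatostatin and pancreatic polypeptide cells of the islet. The fasted DT mice were studied 1 month after ablation. The fasted controls carried the same transgenes, and what they received in place of toxin is not given in the sources used here. RNA came from β-cells sorted by flow cytometry, with 1 library per mouse, so a difference between groups is a difference between mice. Of 52327 gene symbols in the table, 14064 had enough counts to be tested.

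Islets hold insulin-secreting β-cells beside α-cells (glucagon), δ-cells (somatostatin) and γ-cells (pancreatic polypeptide). Glucagon acts on β-cells through receptors that raise cyclic AMP and so favour insulin secretion, whereas somatostatin acts through receptors that lower cyclic AMP and restrain it. A fast lowers the drive on β-cells to secrete while the glucagon tone of the intact islet is high. Diphtheria toxin enters only cells with a suitable receptor and stops their protein synthesis.

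Total counts per library were 16584117 to 23488749 in fasted DT mice and 17466967 to 22260048 in fasted control mice. Ins1 and Ins2, which encode insulin, together accounted for 47.7% ± 2.07 of the counts in fasted DT mice (SD, n = 6) and 49.2% ± 1.59 in fasted control mice (SD, n = 5), which fits the label of the sorted cells. More genes had at least 1 count in DT libraries (18556 to 19284 genes) than in control libraries (17846 to 18468 genes), with no overlap (two-sided exact permutation p = 0.00433, adjusted p = 0.0216 over 5 library measures). After all libraries were thinned to 16584117 counts the ranges were 18303 to 19027 genes in DT mice and 17584 to 18030 genes in control mice. Apart from treatment, the 11 libraries fell into 2 sets, mice 4 to 8 (3 DT, 2 control) and mice 1 to 3 with 9 to 11 (3 DT, 3 control), along a leading component with 35.9% of the variance of the 1000 most variable genes. The sets were defined from the data, no label names them, and each holds mice of both treatments. Genes whose first 500 transcript bases had the highest GC content (the top 10% of genes) were lower in mice 4 to 8 than in the other 6 (median log2 difference −0.87). In the same genes the median DT effect was 0.00. A difference between DT and control mice computed within each set is therefore given beside the hormones, the called genes and those other results where it is named.

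**Figure D1:**
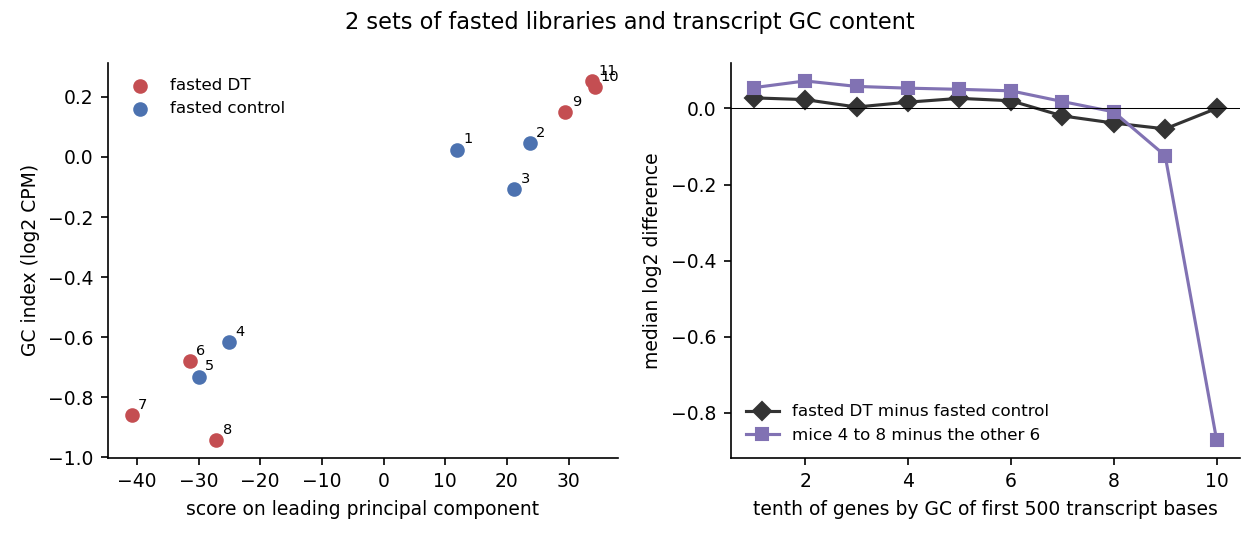
Left, each of the 11 fasted libraries by its score on the leading principal component (x axis) and its GC index, the mean log2 CPM of GC-rich genes less that of all genes with a known GC content (y axis), with mouse numbers. Right, the median log2 difference in 10 groups of genes by GC content of the first 500 transcript bases, for fasted DT minus fasted control (diamonds) and for mice 4 to 8 minus the other 6 (squares), which reaches −0.87 in the most GC-rich group.

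Transcripts of the hormones made by the ablated cell types were lower on average in libraries of DT than of control mice. The difference was large for glucagon and somatostatin and smaller for pancreatic polypeptide. Levels are given as CPM, the counts scaled to a common library size after TMM normalization. Gcg, which encodes glucagon, was between 0.0529 and 0.833 CPM in fasted DT mice (median 0.146), against 241, 1.28, 9.09, 109 and 77.4 CPM in fasted control mice 1 to 5. Every DT mouse lay below every control mouse, and the controls themselves spanned a wide range. Sst, which encodes somatostatin, was 0.0546, 0, 4.71, 0, 0.160 and 0.0404 CPM in DT mice 6 to 11, against 43.4, 42.7, 30.3, 28.5 and 13.4 CPM in control mice 1 to 5. A count of 0 in mice 7 and 9 allows up to 0.179 and 0.135 CPM, taking 3 counts as the limit, and mouse 8 alone among DT mice held more than a trace. Ppy, which encodes pancreatic polypeptide, was between 1.04 and 10.6 CPM in DT mice (median 3.45), against 46.7, 23.9, 5.41, 10.6 and 6.87 CPM in control mice, and these ranges overlapped.

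The differences in mean log2(CPM + 1), DT minus control, were −4.79 for Gcg (two-sided exact permutation p = 0.00216, adjusted p = 0.00649), −4.45 for Sst (exact permutation p = 0.00433, adjusted p = 0.00649) and −1.72 for Ppy (exact permutation p = 0.0216, adjusted p = 0.0216). In the edgeR fit across all genes, which is the test used for the genes below, Sst passed (log2 difference −5.29 ± 0.91 SE, adjusted p = 0.0390), while Gcg (−8.45 ± 1.58, adjusted p = 0.0630) and Ppy (−2.16 ± 0.75, adjusted p = 0.451) did not. Within mice 4 to 8, and within the other 6 mice defined above, the mean log2 difference was −5.57 and −7.99 for Sst, −7.88 and −6.08 for Gcg, and −1.25 and −2.53 for Ppy. The adjustment of the permutation tests covers the 3 hormones, and 0.00216 is the smallest p that the splits of 6 against 5 mice can give. In libraries of sorted cells, fewer cells of a type and less RNA per cell cannot be told apart, and whether these transcripts came from α-, δ- and γ-cells among the sorted cells or from β-cells was not tested.

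**Figure D2:**
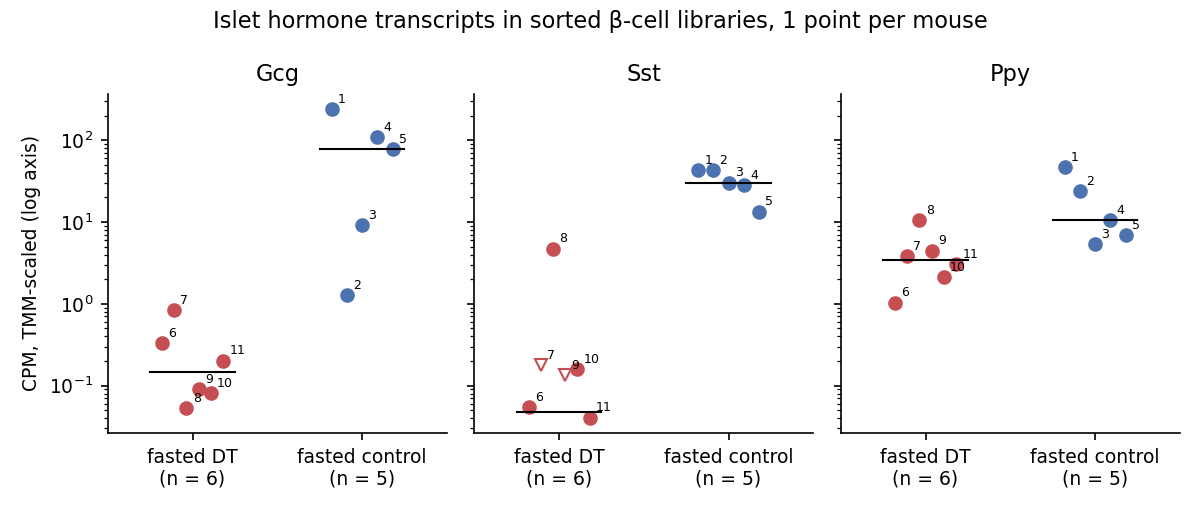
Level of Gcg, Sst and Ppy (CPM, log axis) in each fasted DT mouse (left) and fasted control mouse (right), with mouse numbers; black lines are group medians, and open triangles mark counts of 0 at the level of 3 counts. All DT mice lie below all control mice for Gcg and Sst, and the groups overlap for Ppy.

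Other markers of the ablated cell types were near 0 or were expressed in both groups. Of 17 α-cell markers listed, 10 were tested, and Gcg was the only one at an unadjusted p under 0.05. The δ-cell transcription factor Hhex had 0 to 0.382 CPM in DT mice (median 0.239) and 0.916, 1.40, 0.399, 1.52 and 0.875 CPM in control mice, with no overlap (log2 difference −2.23 ± 0.82 SE, edgeR adjusted p = 0.478). The peptide YY gene Pyy, expressed in γ-cells and δ-cells, had 3.68 to 16 CPM in DT mice (median 7.27) and 74.7, 32.8, 9.14, 9.33 and 7.12 CPM in control mice (−1.52 ± 0.60, edgeR adjusted p = 0.503), with 0.21 within mice 4 to 8 and −2.03 within the other 6. The higher Pyy and Ppy levels were in control mice 1 and 2.

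Across all 14064 tested genes the DT effect in fasted mice was small and rarely passed the test. With edgeR's quasi-likelihood test and Benjamini-Hochberg adjustment, 3 genes were higher and 1 was lower in DT mice at an adjusted p under 0.05, which is 0.0284% of the genes tested (0.0213% higher and 0.00711% lower). A fit of the 11 fasted mice alone called 0 genes, with 1546 at an unadjusted p under 0.05. In the fit of all 22 mice, 1172 genes (8.33%) had an unadjusted p under 0.05, of which 722 were higher (5.13%) and 450 lower (3.2%) in DT mice. The median log2 difference was 0.01, and the middle 90% of genes lay between −0.52 and 0.82. In 264 genes (1.88%) the 6 DT and the 5 control mice did not overlap, with all DT mice higher in 155 (1.1%) and lower in 109 (0.775%). The 95% interval of the difference lay within a 2-fold change in either direction for 9274 genes (65.9%) and within a 1.5-fold change for 5579 genes (39.7%).

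**Figure D3:**
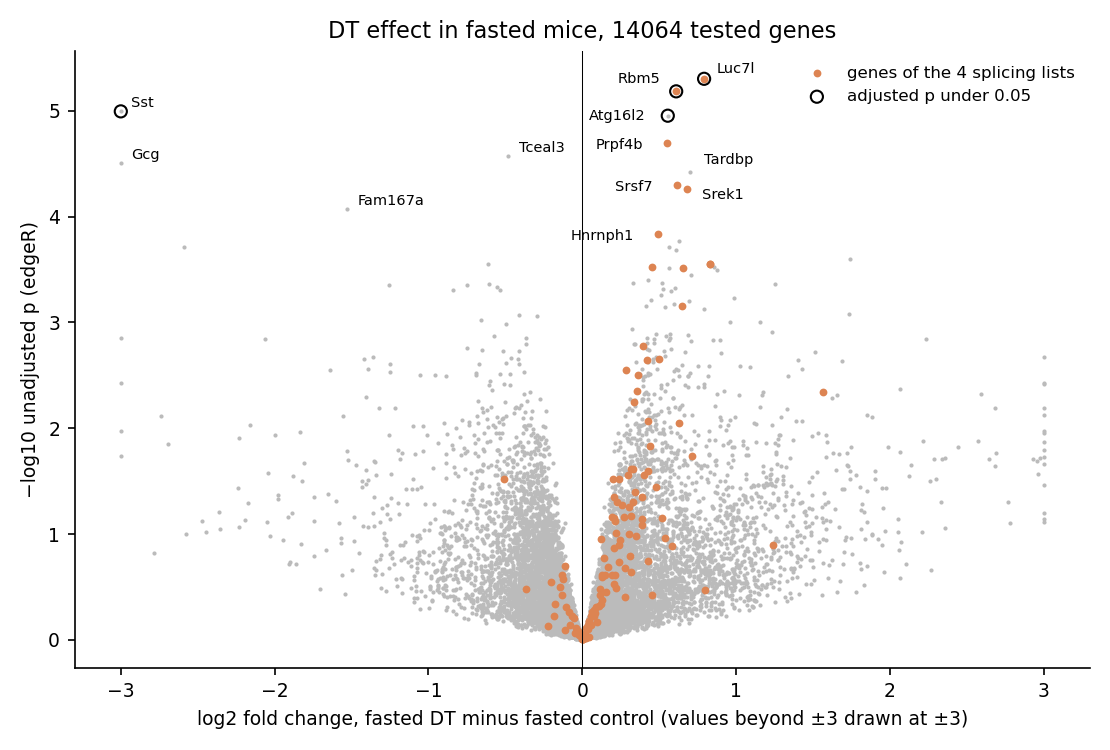
Log2 fold change of fasted DT minus fasted control mice (x axis, values beyond ±3 drawn at ±3) against −log10 of the unadjusted edgeR p (y axis) for 14064 genes. Orange points are genes of 4 splicing lists, most of them right of 0, and black circles mark the 4 genes with an adjusted p under 0.05.

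The genes that rose in DT mice were Luc7l, Rbm5 and Atg16l2, and the gene that fell was Sst. Luc7l, which encodes a LUC7-family protein of U1 small nuclear ribonucleoproteins that help to choose 5′ splice sites, had 66.5 to 118 CPM in DT mice (median 85.9), against 44.7, 46.7, 66.4, 50.6 and 48.2 CPM in control mice. The lowest DT mouse stood next to the highest control mouse, and the other DT mice were further above all controls (log2 difference 0.79 ± 0.13 SE, 95% interval 0.52 to 1.07). Rbm5, an RNA-binding regulator of exon inclusion, had 74.5 to 107 CPM in DT mice (median 82.4) and 53.2, 54.3, 62.8, 60.8 and 48.2 CPM in control mice (0.61 ± 0.10, 0.40 to 0.83). Atg16l2, a relative of the autophagy gene Atg16l1, had 39.9 to 56.4 CPM in DT mice (median 45.9) and 25.5, 35.0, 32.8, 31.3 and 33 CPM in control mice (0.56 ± 0.10, 0.35 to 0.76). Each of these genes, and Sst at −5.29 ± 0.91, had an adjusted p of 0.0390 with edgeR.

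The 3 differences were of like size in both sets of libraries. In mice 4 to 8, and in the other 6 mice, the mean log2 difference was 0.78 and 0.80 for Luc7l, 0.56 and 0.67 for Rbm5, and 0.46 and 0.64 for Atg16l2. In refed mice the DT effects were 0.16 for Luc7l, 0.09 for Rbm5 and 0.21 for Atg16l2, and none of these passed the interaction test between feeding states (edgeR adjusted p of 0.52 for Luc7l, 0.51 for Rbm5 and 0.61 for Atg16l2). The strand setting of the counting is not given in the sources used here. Luc7l and Rbm5 overlap unnamed gene models and Atg16l2 overlaps Fchsd2 on the other strand, so reads of these overlaps cannot be told apart. With each library's GC index as a covariate in all 22 mice, 3 of the 4 genes (Sst, Luc7l and Rbm5) were called and no other gene. These calls were 0.0213% of genes, with 0.0142% higher and 0.00711% lower. In fasted mice alone with that covariate 42 genes were called (0.314%), with Luc7l and Rbm5 among them but not Sst or Atg16l2. Those 42 genes had a median GC content of 67% in their first transcript bases, against 55.8% for the 4 genes. The index is itself computed from GC-rich genes, and its part in these calls was not tested. Leaving out 1 fasted mouse at a time changed the count of called genes from 4 to between 0 and 11: it was 0 without any 1 of DT mice 6, 9 and 10 or of control mice 1, 2, 4 and 5, it was 1 without DT mouse 8, and 11 without control mouse 3.

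**Figure D4:**
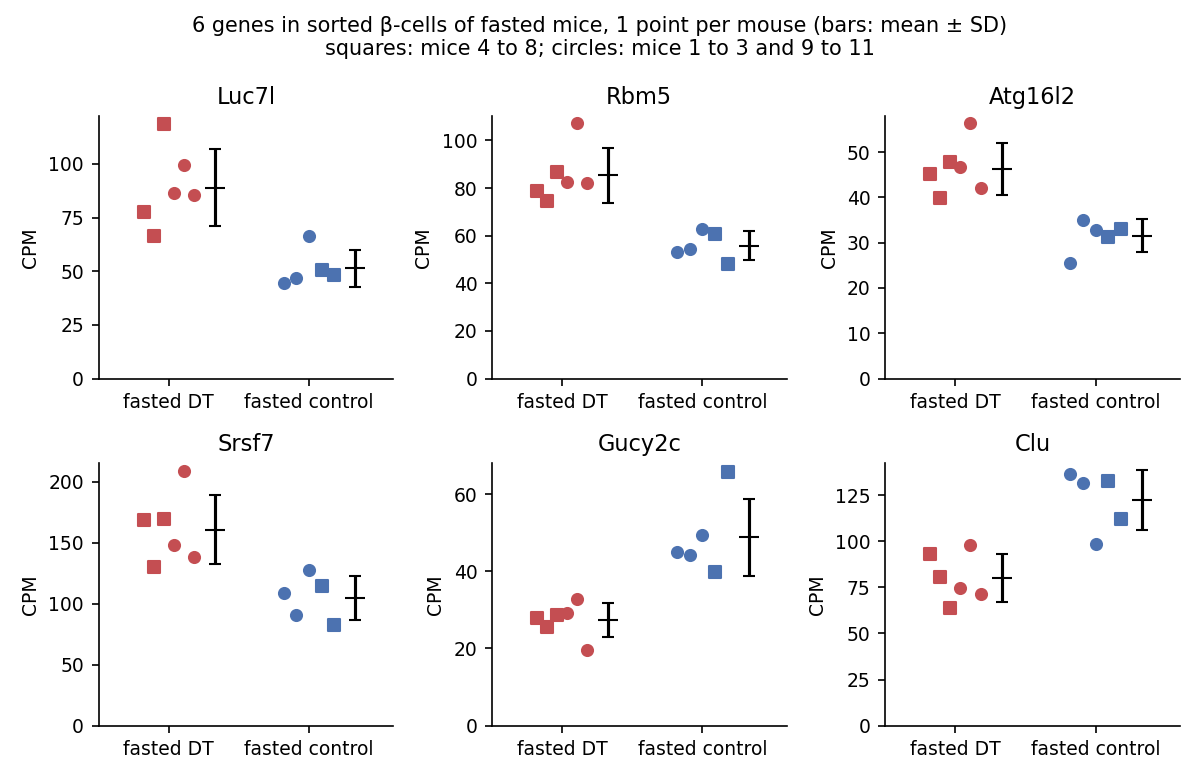
CPM (y axes from 0) of 6 genes in each fasted DT mouse (left) and fasted control mouse (right), with group means ± SD as bars beside the points; squares are mice 4 to 8 and circles the other mice. Luc7l, Rbm5, Atg16l2 and Srsf7 are higher in every DT mouse than in any control mouse, and Gucy2c and Clu are lower in every DT mouse.

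RefSeq promoters (250 bases before to 50 after the annotated start, GRCm38.p6) were found for 3 of the 4 called genes and are given to show the starts of the transcripts that moved, 5′ to 3′ on the strand of the gene. Capitals mark the cyclic AMP response element TGACGTCA, which binds CREB-family factors, reads the same on both strands, and is classically known from the somatostatin gene.

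Sst (chr16:23890795-23891094, minus strand): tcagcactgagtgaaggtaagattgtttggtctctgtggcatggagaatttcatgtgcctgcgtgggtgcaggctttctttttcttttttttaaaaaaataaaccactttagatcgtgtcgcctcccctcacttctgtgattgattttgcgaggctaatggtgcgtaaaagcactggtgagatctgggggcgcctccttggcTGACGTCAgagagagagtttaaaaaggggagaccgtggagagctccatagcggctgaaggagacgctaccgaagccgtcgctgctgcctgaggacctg
Atg16l2 (chr7:101302039-101302338, minus strand): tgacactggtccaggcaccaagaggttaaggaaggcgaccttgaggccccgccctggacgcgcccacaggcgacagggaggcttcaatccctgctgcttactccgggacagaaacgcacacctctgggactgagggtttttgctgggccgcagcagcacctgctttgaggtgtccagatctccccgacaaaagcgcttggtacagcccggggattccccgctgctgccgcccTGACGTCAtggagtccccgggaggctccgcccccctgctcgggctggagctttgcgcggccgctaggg
Rbm5 (chr9:107770953-107771252, minus strand): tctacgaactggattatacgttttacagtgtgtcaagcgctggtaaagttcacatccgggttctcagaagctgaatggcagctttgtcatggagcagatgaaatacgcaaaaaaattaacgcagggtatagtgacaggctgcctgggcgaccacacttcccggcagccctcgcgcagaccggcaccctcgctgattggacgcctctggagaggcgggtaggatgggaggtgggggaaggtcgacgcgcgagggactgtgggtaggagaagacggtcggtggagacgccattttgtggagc

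The element begins at position −48 in Sst and at −18 in Atg16l2, counted from the start used for each window. These letters are not in the Rbm5 window. The annotated gene spans reach further upstream than these starts, to 23891342 for Sst and 101302267 for Atg16l2, so the positions hold for these starts only. Of all 32851 RefSeq promoters of this length 588 (1.79%) hold it. A match is a description of the sequence and shows no binding.

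Genes of the splicing machinery were shifted towards higher levels in DT mice. Splicing removes introns in steps led by U1 and U2 small nuclear ribonucleoproteins, with SR proteins and hnRNP proteins steering the choice of exons. In 4 lists of such genes 125 of 129 members were tested. Of these, 2 were called higher (Luc7l and Rbm5) and 0 lower, beside 0.0213% of all genes called higher and 0.00711% called lower. At an unadjusted p under 0.05 there were 34 members higher (27.2%, against 5.13% of all genes) and 1 lower. Their median log2 difference was 0.21, against 0.01 over all tested genes, and 102 of 125 lay above 0. In 17 members (13.6%, against 1.1% of all genes) every DT mouse was above every control mouse, and in 0 every DT mouse was below.

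SR proteins, their kinases and relatives had the highest median of these lists, 0.39, with 27 of 29 members above 0 and 12 at an unadjusted p under 0.05 in the direction of DT mice. Srsf7, an SR protein that binds exonic enhancers, had 130 to 209 CPM in DT mice (median 158), against 109, 90.4, 127, 114 and 82.7 CPM in control mice (log2 difference 0.62 ± 0.12 SE, edgeR adjusted p = 0.0766). Srsf1, the prototype of the family, had 53.5 to 72.6 CPM in DT mice (median 61.7) and 31.4, 40.7, 46.3, 48.4 and 29.0 CPM in control mice (0.65 ± 0.15, edgeR adjusted p = 0.181). Both were higher in every DT mouse, as were Srek1 (0.68 ± 0.14), Tra2a (0.65 ± 0.16) and Srsf11 (0.40 ± 0.11). The exception at an unadjusted p under 0.05 was Srsf4 (−0.51).

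Among U1 proteins and the LUC7 family, 15 of 19 members were above 0, with a median of 0.22. Snrnp70, the U1 protein that contacts SR proteins, had 77.8 to 115 CPM in DT mice (median 82.4) and 37.7, 53.5, 60.5, 55.5 and 41.3 CPM in control mice (0.83 ± 0.19, edgeR adjusted p = 0.181). Tia1, which helps to recruit U1, had 35.6 to 57.4 CPM in DT mice (median 42.8) and 24.7, 22.4, 32.3, 24.6 and 20.6 CPM in control mice (0.83 ± 0.19, edgeR adjusted p = 0.181). Neither range overlapped. Luc7l3 had a difference of 0.63 ± 0.22, and the core Sm protein gene Snrpb −0.02.

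The RBM and hnRNP list had a lower median, 0.08, with 28 of 40 members above 0. Beside Rbm5, every DT mouse was above every control mouse for Hnrnph1 (0.49 ± 0.11), Rbm39 (0.45 ± 0.11), Hnrnpm (0.36 ± 0.11) and Hnrnpa2b1 (0.34 ± 0.11). Of the U2, U4/U6.U5 and catalytic genes, 32 of 37 lay above 0 with a median of 0.13. Prpf4b, a kinase of the pre-spliceosome, had 53.1 to 78.6 CPM in DT mice (median 66) and 42.4, 46.9, 52.9, 45.9 and 39.6 CPM in control mice (0.55 ± 0.10, edgeR adjusted p = 0.0562). Tardbp, which encodes the RNA-binding protein TDP-43 and was in none of the lists, had 35.2 to 58.5 CPM in DT mice (median 43.7) and 21.8, 25.7, 28.3, 35.8 and 25.7 CPM in control mice (0.70 ± 0.14, edgeR adjusted p = 0.0666).

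The mean log2 CPM of the 125 splicing genes lay between 0.116 and 0.303 above the control mean in the 6 DT mice and between −0.123 and 0.101 in the 5 control mice, with no overlap. The median difference of these genes was 0.24 within mice 4 to 8, 0.13 within the other 6, and 0.09 in refed mice. DESeq2 on all 22 mice called 10 of the 125 higher and 0 lower, beside 0.26% higher and 0.134% lower of the genes it could adjust. The splicing lists were assembled with the calls of Luc7l and Rbm5 known, so their counts are a description.

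Other measures also differed on average between DT and control mice, and their part in the splicing result was not tested. Long noncoding genes had a median log2 difference of 0.24, with 725 of 1050 above 0 (69.0%), against a median of 0.00 over 12213 protein-coding genes. In 27 of the 1050 every DT mouse was higher (against 1.1% of all genes), and in 3 every DT mouse was lower (against 0.775% of all genes). Their median was 0.20 within mice 4 to 8, 0.25 within the other 6 and 0.21 in refed mice. Malat1, an abundant long RNA kept in the nucleus, had 848 to 1551 CPM in DT mice (median 1083), against 441, 432, 996, 757 and 437 CPM in control mice, and the groups overlapped (0.90 ± 0.45, edgeR adjusted p = 0.628). Meg3, a long noncoding RNA of the imprinted Dlk1 region, chosen after its values were seen, had 237 to 495 CPM in DT mice (median 328) and 121, 145, 276, 211 and 140 CPM in control mice (0.96 ± 0.39, edgeR adjusted p = 0.510). Transcripts annotated with a retained intron exist for 105 of 124 splicing genes (84.7%) and for 53.2% of all annotated tested genes. Genes with and without such a transcript had medians of 0.03 and −0.01 over all annotated tested genes, and 0.21 and 0.14 among the splicing genes. At an unadjusted p under 0.05, such a transcript exists for 64.1% of 710 annotated genes higher in DT mice. For the 434 annotated genes that were lower the share was 49.1%.

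Sst was the only gene lower in DT mice that passed the edgeR test, and Gcg did not (adjusted p = 0.0630). Of the other genes with the lowest p among those lower in DT mice, several separated the groups completely. Tceal3, an X-linked gene of the transcription elongation factor A-like family, had 24.6 to 28.4 CPM in DT mice (median 25.8), against 44.0, 35.9, 34.7, 33.4 and 33.7 CPM in control mice (−0.48 ± 0.09, edgeR adjusted p = 0.0628). Clu, which encodes the secreted chaperone clusterin, had 63.8 to 98.0 CPM in DT mice (median 77.8) and 137, 132, 98.6, 132 and 112 CPM in control mice (−0.61 ± 0.15, edgeR adjusted p = 0.182). Degs2, a sphingolipid hydroxylase, had 7.09 to 13.2 CPM in DT mice (median 9.70) and 16.7, 14.4, 15.5, 18.2 and 17.2 CPM in control mice (−0.75 ± 0.18). All DT mice were below all controls for each of these, as for Camsap3, a protein of microtubule minus ends (−0.61 ± 0.14), Gmeb2 (−0.55 ± 0.13) and Apbb1 (−0.41 ± 0.11). The groups overlapped for Fam167a (−1.53 ± 0.32), Spsb1 (−1.26 ± 0.30) and Rsph9 (−0.53 ± 0.13). In refed mice the DT effect was −0.60 for Degs2 and −0.48 for Camsap3, but 0.37 for Fam167a and 0.04 for Spsb1. Among genes higher in DT mice outside splicing, the groups did not overlap for Wdr77 (0.56 ± 0.13), part of an arginine methylation complex, and Apbb3 (0.61 ± 0.14).

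DESeq2, fitted on the same 22 mice, called 33 genes higher and 17 lower, and 167 (1.25%) when fitted on the 11 fasted mice. Its calls on 22 mice included the 4 named above. Among its other calls, Gpr135, an orphan receptor, had 0 to 0.607 CPM in DT mice (median 0.277), against 2.07, 1.34, 1.6, 1.85 and 1.87 CPM in control mice (edgeR −2.59 ± 0.58, edgeR adjusted p = 0.180). Agxt2, a mitochondrial aminotransferase, had 1.76 to 3.55 CPM in DT mice (median 2.09) and 0.627, 1.46, 0.710, 0.331 and 0.375 CPM in control mice (1.74 ± 0.40, edgeR adjusted p = 0.181). The immunoglobulin genes Ighg2b and Iglv1 were also called by DESeq2, on counts present in some DT mice (up to 17.9 CPM for Ighg2b and 1.54 CPM for Iglv1) and 0 in all 5 control mice.

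No gene that defines β-cells passed the test, and most of those tested had intervals within a 2-fold change. Ins1 differed by 0.01 ± 0.24 (95% interval −0.49 to 0.51) and Ins2 by −0.12 ± 0.21 (−0.55 to 0.32), and their reads can be shared between these close copies. Of 25 identity genes 23 were tested, 0 were at an unadjusted p under 0.05 in either direction, the median was 0.02, and for 19 the interval lay within a 2-fold change. Pdx1, a master regulator of the β-cell, had 105 to 153 CPM in DT mice (median 125), against 123, 143, 108, 113 and 128 CPM in control mice (0.05, interval −0.19 to 0.30). Iapp, which encodes the amyloid peptide stored with insulin, differed by −0.03 (−0.20 to 0.15), the zinc transporter gene Slc30a8 by 0.07 (−0.14 to 0.28), and Ucn3, a peptide of mature β-cells, by 0.02 (−0.43 to 0.48). These genes were picked for their function, after the values were seen. Intervals reached beyond a 2-fold change for Nkx6-1 (−0.75 to 1.43), Mnx1 (−1.29 to 2.21) and Trpm5 (−0.49 to 1.24). Mafa, an activator of insulin transcription, was not resolved either, with an interval from −1.49 to 1.45. It had 19.6 to 238 CPM in DT mice (median 100.1), against 159, 215, 139, 32.3 and 17 CPM in control mice. Control mice 4 and 5, the lowest of the controls, belong to the set of libraries with lower GC-rich genes.

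Genes of insulin processing and granules had a median of −0.08, with 3 of 19 at an unadjusted p under 0.05, all lower in DT mice (beside 3.2% of all genes), and 0 called. Vgf, a precursor of granule peptides, had 1.01 to 5.91 CPM in DT mice (median 4.21) and 10.8, 8.79, 9.14, 8.00 and 11.5 CPM in control mice, with no overlap (−1.39 ± 0.41, edgeR adjusted p = 0.317). Within mice 4 to 8 it differed by −2.13 and within the other 6 by −1.01. The groups overlapped for Pam, which amidates peptides and had 129 to 503 CPM in DT mice (median 180) and 850, 413, 484, 372 and 512 CPM in control mice (−1.03 ± 0.39, with −0.31 within mice 4 to 8 and −1.98 within the other 6). Scg2, a granin, differed by −0.26 ± 0.12. The convertases Pcsk1 (−0.04, interval −0.42 to 0.34) and Pcsk2 (0.06, −0.10 to 0.22) showed small differences, and so did the ATP-sensitive potassium channel genes Abcc8 (−0.06, −0.51 to 0.39) and Kcnj11 (−0.13, −0.41 to 0.16).

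Exocytosis genes had a median of −0.01 over 19 members and channel and calcium genes 0.11 over 24, with 0 called in both. Cadps, which primes granules for release, had 17.9 to 54.4 CPM in DT mice (median 28), against 14.6, 20.7, 14.4, 19 and 11.5 CPM in control mice (0.96 ± 0.33, edgeR adjusted p = 0.450), with 0.32 within mice 4 to 8 and 1.40 within the other 6. Stim1, a sensor of calcium stores, differed by −0.27 ± 0.11. Of 21 genes of glucose sensing and metabolism 20 had intervals within a 2-fold change, with a median of 0.01. The glucose transporter gene Slc2a2 differed by 0.35 (interval −0.13 to 0.82) and Mlxipl, which encodes the glucose-responsive factor ChREBP, by 0.78 ± 0.37 (edgeR adjusted p = 0.597).

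Receptors through which islet hormones act on β-cells had a median of −0.06 over 18 tested of 30 members, with 0 called. The members with the lowest p went in opposite directions. Gucy2c, the guanylate cyclase receptor of guanylins, had 19.7 to 32.9 CPM in DT mice (median 28.3), against 44.9, 44.3, 49.5, 39.9 and 65.7 CPM in control mice (−0.84 ± 0.20, edgeR adjusted p = 0.182), and all DT mice were lower. Gipr, the receptor of the incretin GIP, had 112 to 204 CPM in DT mice (median 137) and 64.9, 100, 102, 97.2 and 74.1 CPM in control mice (0.69 ± 0.21, edgeR adjusted p = 0.317), and all DT mice were higher. Both differences were of like size in the 2 sets of libraries (−0.90 and −0.79 for Gucy2c, 0.70 and 0.67 for Gipr, mice 4 to 8 first). The DT effect in refed mice was −0.83 for Gucy2c and 0.26 for Gipr. The glucagon receptor gene Gcgr differed by 0.36 (interval −0.09 to 0.81), the GLP-1 receptor gene Glp1r by 0.07 (−0.32 to 0.47) and the somatostatin receptor gene Sstr3, the main form in mouse β-cells, by −0.22 (−0.55 to 0.10).

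In the cyclic AMP, CREB and SIK list, 20 of 31 members were below 0 with a median of −0.10. At an unadjusted p under 0.05 there were 6 of 31 lower (against 3.2% of all genes) and 0 higher (against 5.13%), and 0 were called. Sik2, a kinase that holds back CREB coactivators, had 7.04 to 15 CPM in DT mice (median 9.21) and 20.1, 11.2, 17, 16.4 and 13 CPM in control mice (−0.67 ± 0.20, edgeR adjusted p = 0.317). Crem, a CREB relative that responds to cyclic AMP, had 6.75 to 11.3 CPM in DT mice (median 9.34) and 12.1, 12.3, 13, 15.1 and 12 CPM in control mice, with no overlap (−0.50 ± 0.21, edgeR adjusted p = 0.530). The CREB targets Sik1 (−1.41 ± 0.58) and Nr4a1 (−1.43 ± 0.62) were both highest in control mouse 2, with 7.10 CPM of Sik1 and 50.0 CPM of Nr4a1, and their groups overlapped. The list's median was −0.22 within mice 4 to 8, −0.05 within the other 6 and −0.05 in refed mice. Immediate-early genes had a median of 0.10 over 20 members, with −0.33 within mice 4 to 8 and 0.31 within the other 6. At an unadjusted p under 0.05 there were 1 member higher and 1 lower. The higher one was Fosb (0.88 ± 0.28), which was higher in every DT mouse, and the lower one was Nr4a1.

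Stress and nutrient lists differed between the 2 sets of libraries. ATF4 and amino acid response genes, which rise when amino acids are short, had a median of −0.26 with 22 of 25 members below 0, 1 higher and 1 lower at an unadjusted p under 0.05, and 0 called. Their median was −0.83 within mice 4 to 8 and 0.18 within the other 6. The member that was higher, Cebpb, a stress-responsive transcription factor, was at 0.0529 to 7.30 CPM in DT mice (median 1.73), against 0.627, 0.582, 0.133, 0.189 and 0.250 CPM in control mice, with −0.25 within mice 4 to 8 and 3.41 within the other 6. Trib3, a target of this pathway, differed by −2.35 and 0.72 in these sets, Nupr1 by −2.20 and −0.23, and Phgdh, the first enzyme of serine synthesis, by −1.73 and 0.10. Phgdh had 13.7 to 44.0 CPM in DT mice (median 20.2) and 28.8, 26.9, 42.8, 47.0 and 54.2 CPM in control mice. Cholesterol genes had medians of 0.42 and −0.31 in the 2 sets, and proliferation genes 0.48 and −0.27, against −0.04 and 0.24 in the fit of all mice. ER chaperone and unfolded protein response genes had a median of 0.13, with 19 of 29 members above 0 and 0 called. Their median was 0.25 within mice 4 to 8 and −0.01 within the other 6. At an unadjusted p under 0.05 there were 1 member higher and 3 lower. Ern1, the IRE1α sensor of this response, was among the lower ones (−0.69 ± 0.21), with −1.39 within mice 4 to 8 and −0.09 within the other 6.

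Antioxidant and metallothionein genes were below 0 in 19 of 23 members with a median of −0.20, and the median was −0.29 within mice 4 to 8 and −0.12 within the other 6. Gpx4, a glutathione peroxidase that protects membrane lipids, had 65.1 to 84.3 CPM in DT mice (median 78.3), against 92.2, 90.3, 91.6, 98.1 and 101 CPM in control mice, with no overlap (−0.31 ± 0.12, edgeR adjusted p = 0.486). Selenbp1, a methanethiol oxidase of the same list, had 1.36 to 3.80 CPM in DT mice (median 2.08) and 3.09, 3.20, 4.97, 4.40 and 8.04 CPM in control mice (−1.05 ± 0.32, edgeR adjusted p = 0.317). Its DT effect differed between feeding states by 3.18 ± 0.46 on the log2 scale (refed minus fasted effect, edgeR adjusted p = 0.0109), and it was the only tested gene (0.00711%) to pass that test. Glucocorticoid-induced genes had a median of −0.27 with 11 of 13 below 0, and 0 were at an unadjusted p under 0.05.

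**Figure D5:**
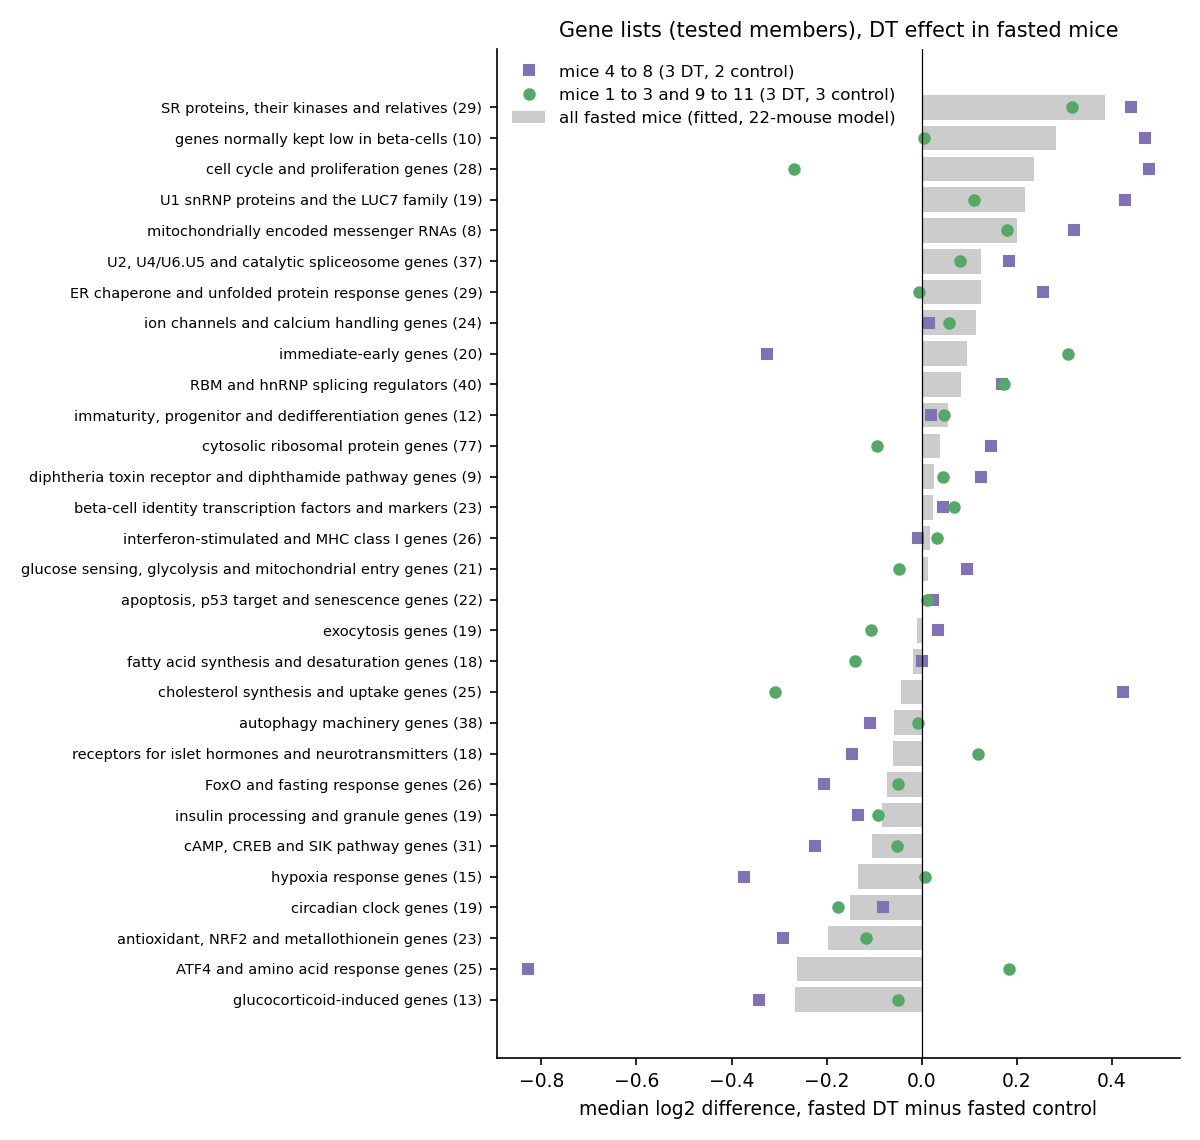
Median log2 difference, fasted DT minus fasted control, of the tested members (number in brackets) of the gene lists outside cell type markers. Grey bars are medians of the fit with all mice, squares medians of mean differences within mice 4 to 8 and circles within the other 6; SR protein genes lie right of 0 in all 3 (0.39, 0.44 and 0.32), and ATF4 genes lie at −0.26, −0.83 and 0.18.

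Among genes related to the toxin, cell damage and autophagy, Atg16l2 was the only called one. Of 9 genes of the toxin receptor and of the diphthamide pathway, which makes the residue that the toxin modifies, 9 had intervals within a 2-fold change. Hbegf, whose human form is the toxin receptor, had 8.03 to 13.2 CPM in DT mice (median 11.7) and 18.4, 18.6, 13, 14.6 and 13.5 CPM in control mice (−0.46 ± 0.22, edgeR adjusted p = 0.599). Whether reads of the transgene were counted there is not given in the sources used here. Apoptosis, p53 target and senescence genes had a median of 0.00 over 22 members. Cdkn1a, which encodes the cell cycle inhibitor p21, had 12.3 to 29.1 CPM in DT mice (median 17.7) and 37.1, 21.1, 53.4, 35.5 and 38.3 CPM in control mice (−0.96 ± 0.29, edgeR adjusted p = 0.317), and 0.86 was its DT effect in refed mice. Of 38 autophagy genes 1 was called higher (against 0.0213% of all genes), with the list's median at −0.06 and 25 members below 0, among them Gabarapl1 (−0.38 ± 0.17) and Map1lc3b (−0.28 ± 0.13).

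Among 12 tested genes of immaturity and dedifferentiation the median was 0.06, and 0 were called. Aldh1a3, a marker of dedifferentiated β-cells, had 0 to 0.890 CPM in DT mice (median 0.127), against 0.386, 0.815, 2.53, 4.97 and 5.87 CPM in control mice (−3.38 ± 0.92, edgeR adjusted p = 0.285), with the highest levels in control mice 4 and 5. Dlk1, an imprinted Notch ligand relative, had 1.49 to 4.81 CPM in DT mice (median 1.85) and 1.06, 1.46, 1.46, 1.04 and 0.625 CPM in control mice, with no overlap (1.12 ± 0.39, edgeR adjusted p = 0.451). Its DT effect in refed mice was 2.17.

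Markers of other cell types were uneven between libraries. Summed acinar markers, 21 of 21 detected, ran from 157 to 23813 CPM in DT mice and from 163 to 16749 CPM in control mice. Immune markers, 14 of 21 tested, ran from 62.3 to 531 CPM in DT mice and from 51.4 to 263 CPM in control mice, with a median log2 difference of 1.07. That median was 2.33 within mice 4 to 8 and −0.32 within the other 6. Fibroblast and pericyte markers summed to 0 to 21.5 CPM in DT mice and 0.275 to 3.38 CPM in control mice, with 3 of 14 tested. Of the 3 lists 0 members were at an unadjusted p under 0.05, and the part of these cells in other results was not tested.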

How the data were processed

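RNA of sorted β-cells was sequenced with 1 library per mouse, and raw read counts per gene symbol were used as deposited. The submitters' processing notes name GRCm38.p6, HTSeq 0.9.1, DESeq2 1.28.1 and STAR 2.7.2b, and the role of each, the strand setting and the annotation are not given in the sources used here. Groups came from the sample titles, and 0 count columns were left unmapped. The comparison was edgeR 4.0.16's quasi-likelihood test (R 4.3.3, robust, TMM scaling, filterByExpr) with 1 fit of all 22 mice in 4 groups, the contrast fasted DT minus fasted control, and Benjamini-Hochberg adjustment over 14064 genes, called at an adjusted p under 0.05. The common biological coefficient of variation was 0.373. Errors are SE of log2 fold changes, and intervals are 95%. Differences within a set of libraries are differences of mean log2 CPM with a prior count of 2. Hormones and library measures were tested by two-sided exact permutation over mice. The limit for a count of 0 is 3 counts, and it covers counting error only. The scripts were tested on simulated counts.

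The members and gene lists were chosen with earlier results of these data known. Named genes were the called genes, the 12 higher and 12 lower genes of smallest p whose mean log2 CPM was 1 or more and that had a gene name, the hormones, up to 6 genes of smallest p per described list, and up to 15 DESeq2 calls where the fit of fasted mice alone made none. Some genes that the rule names are not reported here. Genes named for their function outside this rule were chosen after their values were seen. Alternatives were the fasted mice alone, DESeq2 1.42.0, limma 3.58.1 (voom), other scalings and filters, a covariate of acinar markers, refed mice left out, and each fasted mouse left out. The GC index, the GC content of the first 500 transcript bases and the 2 sets of libraries were added after seeing the data. No label ties the sets to a batch. Nothing in the labels says that libraries of a group came from separate preparations beyond separate mice.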

Additional observations from a re-analysis of the deposited data

Results flagged for a closer look

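A library measure or a level of the called and hormone genes was singled out where the highest or lowest mouse of a group stood far from the others by Dixon's test, which was applied to 26 groups of values and marks about 1 group in 20 by chance. Among fasted DT mice, Sst reached 4.71 CPM in mouse 8, while the next highest DT mouse had 0.160 CPM. The same mouse had the highest Ppy among DT mice, 10.6 CPM, which lies inside the range of the control mice. Gcg reached 0.833 CPM in DT mouse 7, below the lowest control mouse at 1.28 CPM. Rbm5 reached 107 CPM in DT mouse 10. Luc7l reached 66.4 CPM in control mouse 3, just under the lowest DT mouse at 66.5 CPM. Total counts were lowest among control mice in mouse 2, at 17466967.

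Selenbp1 was marked because its DT effect differed between feeding states, by 3.18 on the log2 scale (edgeR interaction test, adjusted p = 0.0109), with an effect of 2.12 in refed mice and −1.05 in fasted mice. In fasted mice it was lower on average in DT mice within both sets of libraries (−1.36 within mice 4 to 8 and −0.79 within the other 6), and the ranges of the groups overlapped.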

How the results depend on the processing

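For the DT effect in fasted mice, the number of called genes depended on the processing. Against 4 called, it was 0 in edgeR on fasted mice alone (1546 at an unadjusted p under 0.05), 0 with upper-quartile scaling (1116) and 0 without a filter on low counts (2244). It was 2 with RLE scaling, 2 with Ins1 and Ins2 left out, 26 without refed DT mice 13 and 20 (12 higher, 14 lower), and 42 with the GC index in fasted mice alone (29 higher, 13 lower). Of the 4 genes, only Luc7l and Rbm5 were among those 42. DESeq2 called 50 on 22 mice (33 higher, 17 lower) and 167 on fasted mice (93 higher, 74 lower), all 4 genes among both. limma voom, a stricter filter, a non-robust fit and an acinar covariate gave 4, 4, 5 and 5. Leaving out 1 fasted mouse gave 0 to 11, and where it gave 0, between 883 and 1250 genes had an unadjusted p under 0.05. With the 2 sets of libraries as a covariate in fasted mice, 3 other genes were called (Lrp8, Rsph4a and Camsap1). The gene Ins1, at 0.01, changed sign without a filter (−0.00431), without refed DT mice 13 and 20 (−0.00668) and over the mice left out (−0.0334 to 0.0620). Of 600 list medians under alternatives, 587 moved by less than their spread. The others were of fibroblast markers (0.56 in fasted mice alone, 0.71 to 3.63 over the mice left out), immune markers (−0.24 to 3.04), immaturity genes (−0.19 to 0.34), the U1 list (0.20 to 0.33), hypoxia genes (−0.21 with the GC index, −0.23 to −0.0902) and fatty acid genes (−0.0561 to 0.11). The cause of these shifts was not tested. Gcg, Sst and Ppy passed the permutation test with a pseudocount of 0.1 and without any 1 mouse. No paired analysis was possible because DT and control mice share no number. Depth limits genes near 0, such as Sst in DT mice.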

Other observations

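The gene lists outside the comparisons above had 0 called members, and their medians are set against 0.01 over all tested genes. Hypoxia genes had a median log2 difference of −0.13 with 12 of 15 below 0. Their median was −0.37 within mice 4 to 8 and 0.01 within the other 6. The collagen prolyl hydroxylase gene P4ha2 (−0.35) was at an unadjusted p under 0.05 in edgeR and lower in every DT mouse. FoxO and fasting genes had a median of −0.07 over 26 members, with Ppargc1a, a coactivator of mitochondrial genes, at −0.76. Circadian clock genes had a median of −0.15 over 19 members, with the nuclear receptor gene Rora at −0.33. Of 77 ribosomal protein genes 54 lay above 0, with a median of 0.04. Mitochondrially encoded messenger RNAs had 0.20 over 8, interferon and MHC class I genes 0.02 over 26, and fatty acid genes −0.02 over 18. Genes normally kept low in β-cells had 0.28 over 10, with 0.47 within mice 4 to 8 and 0.00 within the other 6. Ductal markers had a median of −0.06 over 9, endothelial markers 0.10 over 5, neural markers −0.00 over 4, and ghrelin-cell markers −0.25 for the 1 member tested. Red blood cell genes summed to at most 0.522 CPM in DT mice and 0.115 CPM in control mice, and 0 of 5 were tested.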
